A study of Mus musculus with 21 samples.

Results

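Indian hedgehog (Ihh), the receptor of parathyroid hormone-related protein (Pth1r), its ligand gene Pthlh and the hedgehog response genes Ptch1, Gli1 and Hhip were followed through chemical reprogramming of mouse fibroblasts. The 6 genes were picked by symbol from the 43436 genes listed in every file, and each was matched to 1 row per library. Small molecules turn somatic cells into pluripotent cells in this process, and the cells on the way resemble extraembryonic endoderm (XEN), the lineage that lines the yolk sac. RNA was sequenced in 21 libraries of 10 groups, and levels are FPKM, fragment counts divided by transcript length and library size. The route from fibroblasts was sampled at day 12, day 16, day 20, day 26 and day 28, with 2 libraries at day 16 and 1 at each other day. XEN cells derived from embryonic day 3.5 embryos (CeXEN, 2 libraries) were grown in the stage 1 medium VC6TFAE with 20 ng/ml bFGF. An XEN line obtained from another laboratory (eXEN, 2 libraries) was grown in the stage 1 medium VC6TF with 20 ng/ml bFGF for replicate 1 and in traditional XEN medium for replicate 2. Chemically induced pluripotent stem cells (CiPSC) were represented by 7 lines at 1 library a line, named C1 to C3, G1, G3, N4 and N6. Embryonic stem cells (ESC, 2 libraries) came from embryonic day 3.5, and the starting fibroblasts (MEF, 2 libraries) from E13.5 embryos. MEF, the cells on the way, CiPSC and ESC replicate 1 carried C57BL/6J-Tg(GOFGFP)11Imeg/RbrcxICR, ESC replicate 2 was C57BL/6 (B6)N, and both kinds of XEN cells came from ICR mice. Wherever XEN cells are set against other cells, strain and cell type cannot be told apart, and medium and replicate cannot be told apart within eXEN. Between CeXEN and eXEN, source and medium cannot be told apart.

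Hedgehog ligands (Shh, Ihh and Dhh) bind the receptor Ptch1, which otherwise holds the transducer Smo inactive at the primary cilium. Released Smo lets the transcription factors Gli2 and Gli3 act as activators, and Ptch1, Gli1 and the ligand-binding protein Hhip are classic targets that rise where the pathway is on. Pth1r is a G protein-coupled receptor for parathyroid hormone and for the protein encoded by Pthlh, which promotes parietal endoderm formation in the early mouse embryo. Ihh is also known as a signal from the visceral endoderm, and in the growth plate of bone Ihh and Pthlh form a feedback loop through Pth1r.

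Windows of 250 bases before annotated starts of Ihh and Pth1r are shown because both genes were high in the same 10 of the 21 libraries. The sequences are from RefSeq on GRCm38.p6, run 5′ to 3′ on the minus strand, and have each CG in capitals. The Ihh window is chr1:74951673-74951922 and the Pth1r window, taken at the start that the expression files use, is chr9:110743687-110743936.
Ihh: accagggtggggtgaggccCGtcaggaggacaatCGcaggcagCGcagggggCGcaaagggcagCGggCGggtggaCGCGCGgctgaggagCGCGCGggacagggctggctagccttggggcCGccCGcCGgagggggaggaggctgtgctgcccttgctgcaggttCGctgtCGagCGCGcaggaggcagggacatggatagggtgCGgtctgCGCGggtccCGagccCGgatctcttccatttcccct
Pth1r: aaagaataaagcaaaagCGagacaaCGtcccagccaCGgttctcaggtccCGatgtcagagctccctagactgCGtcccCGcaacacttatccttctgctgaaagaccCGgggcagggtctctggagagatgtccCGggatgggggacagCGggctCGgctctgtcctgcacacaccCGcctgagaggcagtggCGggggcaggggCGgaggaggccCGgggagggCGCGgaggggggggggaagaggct
The Ihh window held 24 CG dinucleotides and a GC content of 72%. Of the windows of the same length for 32851 promoters, 89.3% and 93.6% were at or below these values. The Pth1r window held 16 and 65.6%, with 76.5% and 84.5% at or below. Pth1r has 3 annotated starts. The windows of the other 2 held 3 CG at a GC content of 56% (37.8% and 62.4% at or below) and 22 at 70.4% (86.7% and 91.7% at or below). 5 of the 6 genes had such an entry, with 7 windows in all, and the windows were searched on both strands for GACCACCCA (a GLI motif, in 0.225% of all promoters), TGACGTCA (the cyclic AMP response element, 1.55%), and the GATA motif AGATAA (9.99%). The other GATA motif searched was TGATAA, which 7.94% of all promoters held. The TATA box was searched as TATAAA, held by 12.4%. The 1 match was TGACGTCA in the Hhip window, at position -75 from the start. These letters are a description of sequence, and their absence from a window says nothing of a factor's binding.

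Defining markers stood where the labels put them. Gata4 and Sox17, transcription factors of XEN cells, stood at 188 to 457 FPKM and 330.3 to 599.5 FPKM in the cells on the way and at 424 to 519 FPKM and 148 to 498 FPKM in XEN cells, against at most 2.66 FPKM and 1.89 FPKM in the pluripotent and MEF libraries. Pou5f1 and Nanog stood at 752 to 1127 FPKM and 209 to 375 FPKM in CiPSC and at 555 and 761 FPKM and 379.8 and 487 FPKM in ESC, and Pou5f1 reached 18.9 FPKM at day 26. Fibroblast RNA was still present on the way. Col1a1, a collagen, was at 133 FPKM at day 12, 25.8 and 91.2 FPKM at day 16 and 1.03 FPKM at day 28. It had 1467 and 4659 FPKM in MEF. By the test given below, 6 of 10 fibroblast markers were lower at day 16 than in MEF, 1 was higher and 3 were not called. The 3 were Thy1, Twist1 and Twist2, with log2 changes of -1.25, 0.09 and -0.03, against -5.72 for Col1a1. Relative depth, read from genes of few fragments, was 0.4 (line C3) to 1.57 (line N4) times that of ESC replicate 1. The quantifier's status LOWDATA appears in the libraries of day 12, day 20 and day 26 and day 16 replicate 1 and not in those of day 16 replicate 2 and day 28, and neither labels nor headers say why. Fewer cells of a type and less RNA per cell cannot be told apart in such libraries. Whether replicates came from separate cultures is not in the labels, and the p-values then reflect spread among these samples alone, which may be technical.

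Ihh (ENSMUSG00000006538, chr1:74945315-74951672, mm10, minus strand) was abundant in every library of the cells on the way and of XEN cells and nearly silent elsewhere. It stood at 92.0 FPKM at day 12, 137 and 80.9 FPKM at day 16, 190.3 FPKM at day 20, 196 FPKM at day 26 and 311 FPKM at day 28. CeXEN had 143 and 194 FPKM and eXEN 39.9 and 13.6 FPKM. The lowest of these 10 libraries lay far above the pluripotent and MEF libraries, which did not exceed 0.280 FPKM. CiPSC lines ran from 0 (N4 and N6) over a median of 0.0714 to 0.280 FPKM (C2), ESC had 0.0331 and 0.0571 FPKM, and MEF had 0.0518 and 0 FPKM. By mean, day 28 stood highest, then day 26, day 20, CeXEN (168 ± 35.6, SD, n = 2), day 16 (109 ± 39.5, SD, n = 2), day 12 and eXEN (26.7 ± 18.6, SD, n = 2). Day 20 and CeXEN, and day 16 and day 12, differed by less than the spread of the replicates, as did CiPSC, ESC and MEF. Ihh made up 98.1% to 99.8% of the summed FPKM of the 3 hedgehog ligands in every library of the cells on the way and of XEN cells.

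Changes were tested with limma on log2(FPKM + 1) over 16650 genes, and calls needed an adjusted p below 0.05 together with a log2 change of 1 or more either way. This scale understates changes of genes near 0. The SE pools the spread of all groups, also of those in which a gene was near 0 and could vary little. Hhip missed the filter (1 FPKM or more in 2 libraries or more), so 5 of the 6 genes were tested. Pthlh passed the filter through day 12 and day 16 alone, Gli1 through CiPSC lines alone, and Ihh through the cells on the way and XEN cells alone. Their differences from other groups, and counts of called genes that include them, are therefore partly built in. Ihh was higher at day 16 than in MEF by 6.70 ± 0.37 (log2, SE; limma, adjusted p = 1.81e-08). In XEN cells, taken as the mean of CeXEN and eXEN, Ihh was higher than in MEF by 5.96 ± 0.32 (log2, SE; limma, adjusted p = 5.82e-09). It was lower in CiPSC than at day 16, with a log2 change of -6.59 ± 0.30 (SE; limma, adjusted p = 7.16e-10), and higher in eXEN than in ESC by 4.55 ± 0.37 (log2, SE; limma, adjusted p = 6.29e-07). The comparisons share libraries and are not independent of each other. Fitted on the 2 groups alone, the day 16 change was not called (limma, adjusted p = 0.0596; 1.06e-08 to 0.0596 over 13 alternatives), and 0 of all genes were called in that fit.

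The 2 kinds of XEN cells, whose source and medium cannot be told apart, differed in Ihh. CeXEN exceeded eXEN by 2.78 ± 0.37 (log2, SE; limma, adjusted p = 0.00036), and both CeXEN libraries lay above both eXEN libraries. The pooled SE includes the 7 CiPSC lines, where Ihh ran from 0 to 0.280 FPKM, and may understate the spread of XEN libraries. Without eXEN replicate 1 the change was 3.52 and without replicate 2 it was 2.03, called in both. Of the 5 genes tested, Ihh was the 1 called in that comparison, where 6.47% of all genes were called (4.01% higher and 2.46% lower). Day 16 exceeded eXEN by 2.12 ± 0.37 (log2, SE; limma, adjusted p = 0.000901), again without overlap of the libraries, and by 2.87 without eXEN replicate 1 and 1.38 without replicate 2, called in both. Within eXEN, the library in stage 1 medium had 39.9 FPKM and that in traditional medium 13.6 FPKM, 1 library each. Neither call held when the 2 groups were fitted alone (limma, adjusted p = 0.283 for CeXEN, with 1.28e-05 to 0.283 over 13 alternatives, and 0.18 for day 16, with 4e-05 to 0.18).

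**Figure D1:**
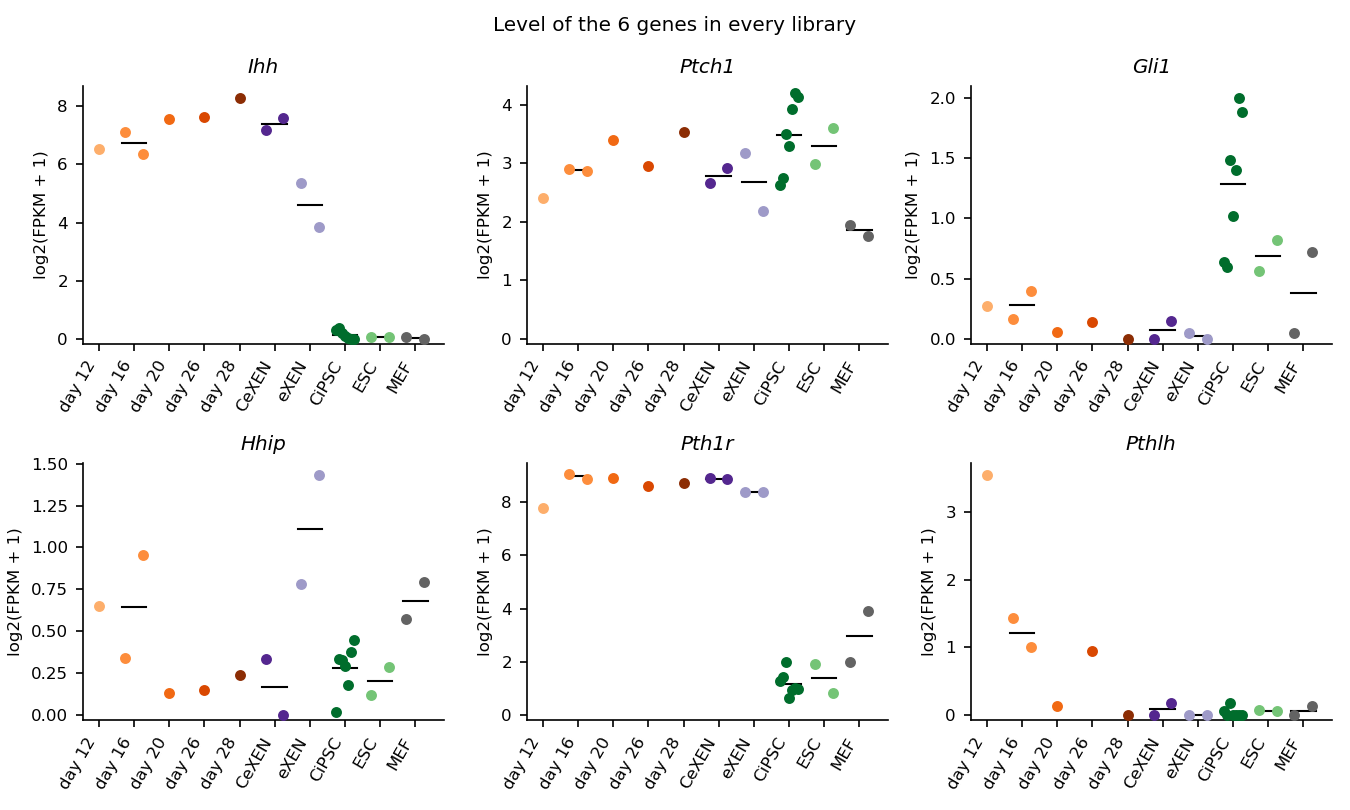
Level of each of the 6 genes in every library as log2(FPKM + 1) on the vertical axis, by group on the horizontal axis; each point is a library and each bar the mean of a group of 2 or more. Ihh and Pth1r are high in the cells on the way, CeXEN and eXEN, Gli1 is highest in CiPSC lines, and Pthlh is highest at day 12.

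Pth1r (ENSMUSG00000032492, chr9:110722088-110743686, minus strand) was more abundant still, and its level varied less between XEN cells than that of Ihh. It had 216 FPKM at day 12, 531 and 468 FPKM at day 16, 473 FPKM at day 20, 384 FPKM at day 26 and 417 FPKM at day 28, and 469.8 and 466 FPKM in CeXEN and 329 and 334 FPKM in eXEN. CiPSC lines ran from 0.559 (G1) over a median of 1.05 to 3.03 FPKM (C3), ESC had 2.79 and 0.789 FPKM, and MEF had 3.01 and 14.2 FPKM. The cells on the way and XEN cells thus lay above all other libraries, and MEF replicate 2 lay above the other MEF library and all pluripotent ones. Day 16 had the highest mean (499.6 ± 45.1, SD, n = 2), followed by day 20, CeXEN (468 ± 2.50, SD, n = 2), day 28, day 26, eXEN (332 ± 3.66, SD, n = 2) and day 12. Day 16 and day 20 differed by less than the spread, as did MEF (8.61 ± 7.93, SD, n = 2), ESC (1.79 ± 1.42, SD, n = 2) and CiPSC (1.39 ± 0.81, SD, n = 7) from 1 rank to the next.

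Against MEF, Pth1r was higher at day 16 by 6.00 ± 0.52 (log2, SE; limma, adjusted p = 1.59e-06) and higher in XEN cells by 5.66 ± 0.45 (log2, SE; limma, adjusted p = 2.29e-07). The size depends on the MEF library: without MEF replicate 1 the changes were 5.04 and 4.70, without replicate 2 they were 6.96 and 6.62, and all were called. Together with Pthlh, given below, 3 of the 5 tested genes were called at day 16, where 20.7% of all genes were called (13.3% higher and 7.41% lower), and 2 of 5 in XEN cells, where 24% were (10.3% higher and 13.8% lower). In eXEN it exceeded ESC by 7.0 ± 0.52 (log2, SE; limma, adjusted p = 2.37e-07), and with Ihh it was 1 of 2 genes called there, where 28.1% of all genes were (9.78% higher and 18.4% lower). In CiPSC it was lower than at day 16, with a log2 change of -7.77 ± 0.42 (SE; limma, adjusted p = 4.53e-09). Against MEF it was also lower in CiPSC, with -1.77 ± 0.42 (SE; limma, adjusted p = 0.00232), but without MEF replicate 2 the change was -0.81 and not called (limma, adjusted p = 0.136; 0.000151 to 0.136 over 18 alternatives). CeXEN against eXEN gave 0.49 ± 0.52 (log2, SE; limma, adjusted p = 0.695) and day 16 against eXEN 0.59 ± 0.52 (log2, SE; limma, adjusted p = 0.471), neither called. The call at day 16 was lost when the 2 groups were fitted alone (limma, adjusted p = 0.0734; 5.3e-07 to 0.0734 over 13 alternatives).

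Ptch1 (ENSMUSG00000021466, chr13:63508328-63573598, minus strand), both receptor and target of the pathway, was present in all 21 libraries, at 2.39 to 17.3 FPKM. It had 4.32 FPKM at day 12, 6.46 and 6.33 FPKM at day 16, 9.47 FPKM at day 20, 6.78 FPKM at day 26 and 10.6 FPKM at day 28. XEN cells had 5.30 and 6.55 FPKM in CeXEN and 8.07 and 3.53 FPKM in eXEN, and MEF had 2.86 and 2.39 FPKM. Every library of the cells on the way and of XEN cells lay above both MEF libraries, and their ranges overlapped those of CiPSC (5.17 to 17.3 FPKM, median 10.3) and ESC (6.97 and 11.1 FPKM). The change at day 16 against MEF was 1.03 ± 0.50 (log2, SE; limma, adjusted p = 0.141) and that of XEN cells 0.88 ± 0.43 (log2, SE; limma, adjusted p = 0.133), neither called. CiPSC exceeded MEF by 1.63 ± 0.40 (log2, SE; limma, adjusted p = 0.00311). With Pth1r, 2 of the 5 genes were called in CiPSC against MEF, where 37% of all genes were (21.7% higher and 15.3% lower). In the order of means (CiPSC, day 28, day 20, ESC, day 26, day 16, CeXEN, eXEN, day 12, MEF), the gaps between day 26 and day 16 and between day 12 and MEF exceeded the spread of the replicates, and the gap between the single libraries of day 28 and day 20 has no spread to be set against. The other gaps lay within it. The quantifier's bounds at day 26, 5.48 and 8.08 FPKM, hold both day 16 values, so day 26 and day 16 are not resolved.

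Gli1 (ENSMUSG00000025407, chr10:127329889-127341589, minus strand), a transcription factor whose mRNA is commonly read as a mark of hedgehog response, was low in every library with abundant Ihh. It had 0.205 FPKM at day 12, 0.122 and 0.318 FPKM at day 16, 0.0415 FPKM at day 20, 0.0997 FPKM at day 26 and 0 FPKM at day 28, and 0 and 0.106 FPKM in CeXEN and 0.0350 and 0 FPKM in eXEN. CiPSC lines ran from 0.516 over a median of 1.64 to 3.0 FPKM, ESC had 0.477 and 0.766 FPKM, and MEF had 0.0360 and 0.645 FPKM. All 9 pluripotent libraries lay above all 10 libraries of the cells on the way and XEN cells, and the MEF libraries fell on both sides. CiPSC exceeded day 16 by 1.01 ± 0.33 (log2, SE; limma, adjusted p = 0.0223), so that with Ihh, Pth1r and Pthlh 4 of 5 genes were called, where 29.9% of all genes were (13% higher and 17% lower). That call sat at the limit of 1: it was lost in 9 of 17 alternatives, among them each day 16 library left out (0.89 without replicate 1 and 1.12 without replicate 2; limma, adjusted p = 0.161 and 0.0682; 0.00413 to 0.161 over the 17). In CiPSC against MEF the change was 0.91 ± 0.33 (log2, SE; limma, adjusted p = 0.0322), under the limit, and 1.24 and called without MEF replicate 2. In eXEN against ESC it was -0.67 ± 0.42 (log2, SE; limma, adjusted p = 0.229). With a pseudocount of 0.1 FPKM, which weighs low values more, it was -2.60 and called (limma, adjusted p = 0.0297; 0.0297 to 0.592 over 12 alternatives).

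Hhip (ENSMUSG00000064325, chr8:79966115-80058006, minus strand), which binds hedgehog ligands and limits their reach, stayed under 1 FPKM in all libraries but 1. It had 0.568 FPKM at day 12, 0.269 and 0.935 FPKM at day 16, and 0.0960, 0.110 and 0.180 FPKM at day 20, day 26 and day 28. CeXEN had 0.264 and 0 FPKM, against 0.719 and 1.70 FPKM in eXEN. The other groups had 0.0156 to 0.362 FPKM in CiPSC lines (median 0.255), 0.0857 and 0.220 FPKM in ESC and 0.488 and 0.735 FPKM in MEF. The highest value belonged to the eXEN library in traditional XEN medium, which had the lowest Ihh of the 4 XEN libraries. With no filter on low values, CeXEN against eXEN gave -0.94 ± 0.23 (log2, SE; limma, adjusted p = 0.0368) and eXEN against ESC 0.91 ± 0.23 (log2, SE; limma, adjusted p = 0.0118), both under the limit of 1.

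Pthlh (ENSMUSG00000048776, chr6:147252101-147264167, minus strand), the ligand gene of Pth1r, was at its highest at day 12. It had 10.7 FPKM there, with the quantifier's bounds at 9.23 and 12.1 FPKM, a width that corresponds to 214 fragments. Day 16 had 1.69 and 1.00 FPKM (34.0 and 22.0 fragments), day 20 had 0.101 FPKM (2 fragments), day 26 had 0.924 FPKM (19.0 fragments) and day 28 was listed at 0. In CeXEN it was 0 and 0.131 FPKM, eXEN was listed at 0 in both libraries, CiPSC lines did not exceed 0.134 FPKM, ESC had 0.0536 and 0.0463 FPKM, and MEF had 0 and 0.0966 FPKM. At these levels at most 2 fragments stood behind a value outside day 12, day 16 and day 26, so the order among those groups was not detectable at this depth. Day 16 exceeded MEF by 1.15 ± 0.17 (log2, SE; limma, adjusted p = 0.000187) and eXEN by 1.22 ± 0.17 (log2, SE; limma, adjusted p = 0.000156), with no overlap of libraries. CiPSC was lower than day 16, with -1.18 ± 0.14 (log2, SE; limma, adjusted p = 9.02e-06). With Ihh, 2 of 5 genes were called in day 16 against eXEN, where 17.1% of all genes were (14% higher and 3.17% lower). All 3 calls were near the limit of 1 and were lost under quantile normalization (0.79, 0.94 and -0.96), and those against MEF and of CiPSC also without day 16 replicate 1 (0.94 and -0.97). With a pseudocount of 0.1 FPKM they were 3.33, 3.81 and -3.56 and called. Fitted on the 2 groups alone, neither the change against MEF nor that against eXEN was called (limma, adjusted p = 0.0927 and 0.0693; 1.82e-05 to 0.0927 and 1.75e-05 to 0.0693 over 12 alternatives each). Ihh and Pth1r did not follow this course: Pth1r was at its lowest of the 5 days where Pthlh was highest.

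**Figure D2:**
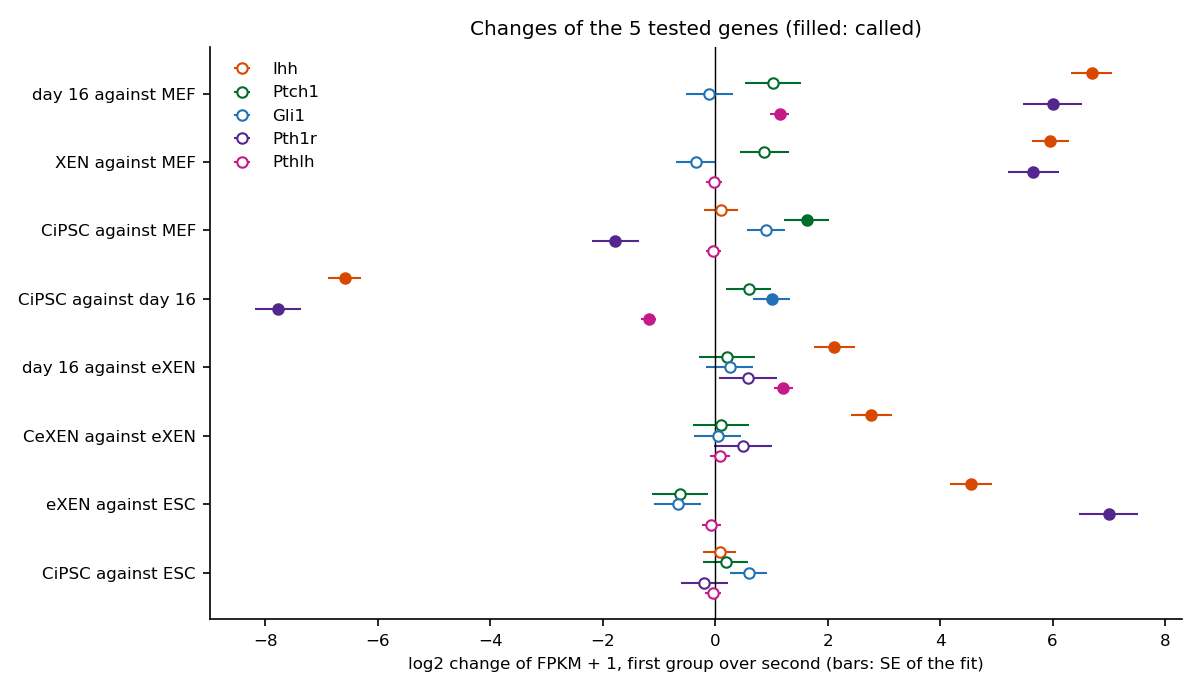
Log2 change of FPKM + 1 (horizontal axis) of the 5 tested genes in the 8 comparisons (vertical axis, first group over second); bars are the SE of the fit and filled points were called. Ihh and Pth1r were both called, in the same direction, in 4 comparisons, while CeXEN against eXEN called Ihh alone and CiPSC against ESC called none of the 5.

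From day 12 to day 28 Ihh had higher values at the later days, with 311 FPKM at day 28 against 92.0 FPKM at day 12, while Pth1r stood between 384 and 531 FPKM from day 16 on. A linear trend over 6 libraries called 0 genes of the 5 and 0% of all genes at an adjusted p under 0.05 (limma), with 3349 genes and 2 of the 5 at an unadjusted p under 0.05. Over the 16 days the fitted change of Ihh was 1.67 ± 0.37 (log2, SE; limma, adjusted p = 0.176) and that of Pthlh -2.46 ± 0.93 (log2, SE; limma, adjusted p = 0.236). Ptch1 gave 0.79 ± 0.33 (log2, SE), Gli1 -0.27 ± 0.12 and Pth1r 0.38 ± 0.49. With presence of the LOWDATA status as a covariate, an alternative chosen after seeing the data, Ihh gave 1.78 ± 0.38 and Pthlh -2.27 ± 1.03. In the 4 libraries with LOWDATA they gave 1.24 ± 0.33 and -2.89 ± 1.45. Without the day 12 library Pthlh gave -1.06 and Pth1r -0.44, so both trends rest largely on day 12. Fibroblast markers changed over the same days. The summed FPKM of all 10 was 1111 at day 12, 430.4 and 749 at day 16, 237 at day 20, 314 at day 26 and 189.7 at day 28, of which Pdgfra, also an XEN marker, made up 172 at day 28. Without Pdgfra, a choice made after seeing the data, the other 9 summed to 961 at day 12, 249 and 568.2 at day 16, 92.3 at day 20, 168 at day 26 and 17.6 at day 28. Their part in the trends was not tested.

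**Figure D3:**
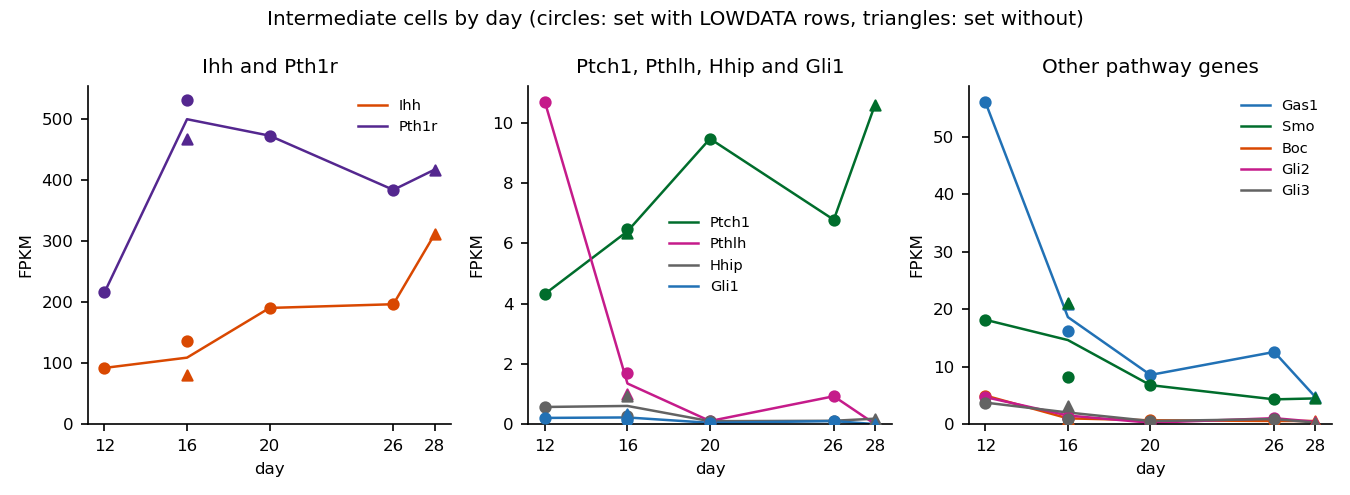
FPKM (vertical axis) by day (horizontal axis) in the cells on the way for Ihh and Pth1r, for Ptch1, Pthlh, Hhip and Gli1, and for Gas1, Smo, Boc, Gli2 and Gli3; points are libraries, lines join the means of the days, and circles and triangles mark libraries with and without the status LOWDATA. Ihh ends at 311 FPKM, Pthlh is at 10.7 FPKM at day 12 alone, and Gas1 stands at 56.1 FPKM at day 12 and 4.70 FPKM at day 28.

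Among the CiPSC lines, Ptch1 and Gli1 followed nearly the same order. Ptch1 had 5.17, 5.68 and 10.3 FPKM in C1, C2 and C3, 8.80 and 14.2 FPKM in G1 and G3, and 17.3 and 16.5 FPKM in N4 and N6. Gli1 had 0.552, 0.516 and 1.81 FPKM in C1, C2 and C3, 1.03 and 1.64 FPKM in G1 and G3, and 3.0 and 2.69 FPKM in N4 and N6. In both genes N4 and N6 were highest and C1 and C2 lowest, with a ratio of highest to lowest line of 3.35 for Ptch1 and 5.81 for Gli1. Gli2, the main activator, had 6.53 to 7.91 FPKM in the C lines and 17.4 to 22.9 FPKM in the G and N lines, with C3, the shallowest library, lowest. The 2 ESC libraries, which differ in strain, fell within these ranges, apart from Gli1 at 0.477 FPKM in ESC replicate 1, just under the lowest line. CiPSC against ESC called 0 of the 5 genes (limma), 0 of them at an unadjusted p under 0.05, where 0.0601% of all genes were called (0.036% higher and 0.024% lower). The changes were 0.19 ± 0.40 for Ptch1 and 0.60 ± 0.33 for Gli1 (log2, SE). Each line is 1 library and the labels do not explain the letters, so no test between lines was made. With C lines alone, an alternative chosen after seeing the data, Gli1 in CiPSC against day 16 was 0.63 and not called (limma, adjusted p = 0.136), and with G and N lines alone Gli1 in CiPSC against MEF was 1.19 and called (limma, adjusted p = 0.00543; 0.00543 to 0.307 over 17 alternatives).

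**Figure D4:**
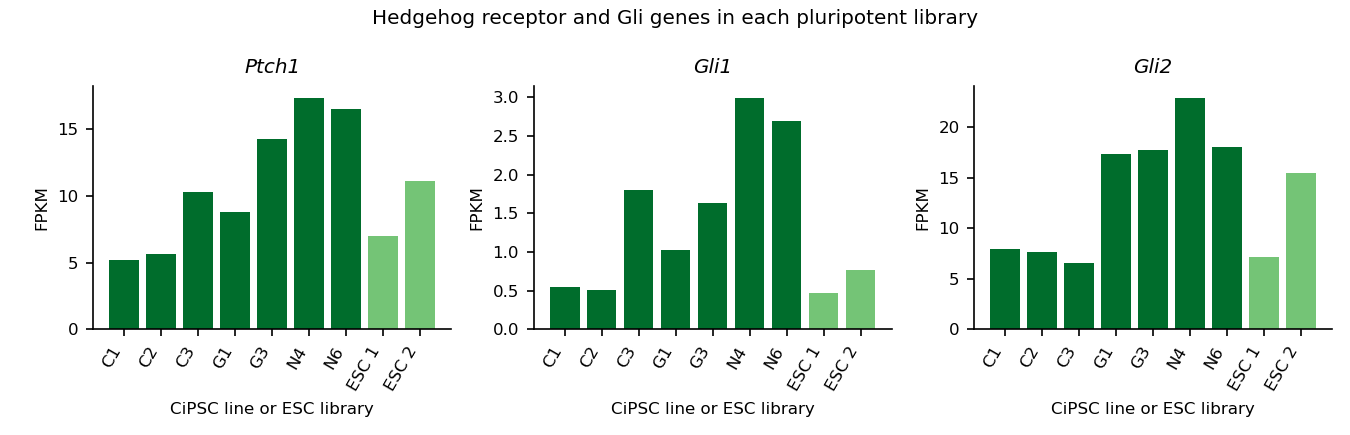
FPKM (vertical axis) of Ptch1, Gli1 and Gli2 in the 7 CiPSC lines and the 2 ESC libraries (horizontal axis); each bar is 1 library and starts at 0. N4 and N6 are the highest lines in all 3 panels, and C1 and C2 are the lowest for Ptch1 and Gli1.

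The ligand's companions were read from a list of 8 genes for ligands and their release, 7 of them tested, Ihh itself among them. Ihh is counted among the higher genes in both comparisons that follow, which the filter partly builds in. At day 16 against MEF 3 were higher and 1 lower (median change 0.54, against 0.22 over all genes), where 13.3% of all genes were higher and 7.41% lower. In XEN cells against MEF 2 were higher and 1 lower (-0.37, against 0.06), where 10.3% of all genes were higher and 13.8% lower. Scube2, a secreted protein that helps free lipid-bearing hedgehog from cells, was, like Ihh, well above its MEF and pluripotent levels in the cells on the way and in XEN cells. It had 4.91 to 19.0 FPKM in the cells on the way, 44.6 and 36.1 FPKM in CeXEN and 11.6 and 31.5 FPKM in eXEN, against 0 and 0.238 FPKM in MEF and at most 1.05 FPKM in the pluripotent libraries. Its change was 3.35 ± 0.38 (log2, SE; limma, adjusted p = 1.73e-05) at day 16 and 4.70 ± 0.33 (log2, SE; limma, adjusted p = 6.36e-08) in XEN cells. Unlike Ihh it was not called in day 16 against eXEN, with -0.83 ± 0.38 (log2, SE), or in CeXEN against eXEN, with 1.02 ± 0.38, and within eXEN its higher value was in the library with the lower Ihh. Dhh, the third ligand, was higher at day 16 by 1.00 ± 0.22 (log2, SE; limma, adjusted p = 0.00332), at 1.2 and 1.16 FPKM against 0.0287 and 0.157 FPKM in MEF, at the limit of 1, and the list's count of higher genes was 2 under either other scaling. Hhat, the enzyme that adds palmitate to hedgehog ligands, was lower. It had 1.59 and 2.61 FPKM at day 16, 0.762 and 2.67 FPKM in CeXEN and 0.0428 and 0 FPKM in eXEN, against 5.51 and 7.83 FPKM in MEF, with a log2 change of -2.24 ± 0.31 (SE; limma, adjusted p = 4.48e-05) in XEN cells. Hhat, like Ihh, was higher in CeXEN than in eXEN, by 1.32 ± 0.35 (log2, SE; limma, adjusted p = 0.0353). Scube3, a relative of Scube2, was instead highest in pluripotent cells, with 7.21 to 10.1 FPKM in CiPSC and 10.2 and 13.0 FPKM in ESC, against at most 1.14 FPKM in all other libraries.

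Most tested genes of the receiving side were lower in XEN cells than in MEF. Of 9 receptors and co-receptors, 8 were tested; 1 was higher and 5 were lower in XEN cells than in MEF (median change -1.44, against 0.06 over all genes), and 1 was higher and 2 lower at day 16 (-0.30, against 0.22). Over all genes 10.3% were higher and 13.8% lower in XEN cells, and 13.3% and 7.41% at day 16. Of the 10 fibroblast markers 9 were lower in XEN cells, with a median change of -7.44, and their part in the receptor changes was not tested. Smo, the transducer, had 8.24 and 21 FPKM at day 16, 8.05 and 8.94 FPKM in CeXEN and 24.4 and 19.6 FPKM in eXEN, against 33.6 and 42.3 FPKM in MEF. The co-receptor Gas1 had 0.456 and 1.62 FPKM in CeXEN and 0.548 and 0.0626 FPKM in eXEN, against 5.89 and 139 FPKM in MEF, whose replicates differ widely. Cdon and Gpc3 were lower too, and Boc, a co-receptor, gave -1.48 ± 0.35 (log2, SE; limma, adjusted p = 0.00406). Boc differed between the 2 kinds of XEN cells, with 0.914 and 0.432 FPKM in CeXEN against 4.76 and 17.7 FPKM in eXEN, and Smo was lower in CeXEN as well. The 1 gene that was higher, Lrp2, is a broad endocytic receptor of endoderm with many ligands, at 16.6 and 22.3 FPKM in CeXEN and 45.9 and 40.4 FPKM in eXEN, against 2.09 and 0.474 FPKM in MEF. In CiPSC against day 16, Gas1, Lrp2 and Gpc3 were lower, with log2 changes of -2.93 ± 0.69, -2.57 ± 0.39 and -2.60 ± 0.60 (SE).

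The transduction list holds 23 genes, all tested, Gli1 among them. In XEN cells against MEF 0 were higher and 6 lower (median change -0.53, against 0.06 over all genes), and at day 16 0 were higher and 2 lower (-0.52, against 0.22). Over all genes 10.3% were higher and 13.8% lower in XEN cells, and 13.3% and 7.41% at day 16. The 2 of 23 lower at day 16 are thus near the share of all genes. Scaling mattered at day 16, where 0 were higher and 9 lower under both quantile normalization (-0.80, against -0.02) and median-of-ratios scaling (-0.85, against 0.00205). Gli2 had 0.0157 and 0.0425 FPKM in CeXEN and 0 and 0.00898 FPKM in eXEN, against 4.12 and 8.77 FPKM in MEF, a change of -2.80 ± 0.47 (log2, SE; limma, adjusted p = 0.000289). Gli3, the main repressor, had 0.271 and 0.0363 FPKM in CeXEN and 1.12 and 0.638 FPKM in eXEN, against 9.94 and 13.4 FPKM in MEF. Evc and Evc2, which pass the signal from Smo in the cilium, were lower in XEN cells, with -3.34 ± 0.46 and -2.83 ± 0.35 (log2, SE; limma, adjusted p = 4.85e-05 and 1.87e-05). On the way, Gli2 was at 4.70 FPKM at day 12, 1.30 and 1.69 FPKM at day 16 and 0.405 FPKM at day 28, and Gli3 at 3.74, 0.850 and 3.19, and 0.262 FPKM on the same days. MEF expressed Gli2, Gli3 and Gas1, the 9 fibroblast markers other than Pdgfra summed to 961 FPKM at day 12 and 17.6 FPKM at day 28, and their part in those values was not tested. In CiPSC against day 16 4 were higher and 2 lower, where 13% of all genes were higher and 17% lower. Gli2 was higher there by 2.46 ± 0.43 (log2, SE; limma, adjusted p = 0.000354) and Kif7, a ciliary kinesin that regulates Gli factors, by 1.38 ± 0.27. In eXEN against ESC 1 was higher (Sufu, a Gli inhibitor, 1.19 ± 0.24) and 3 were lower, Gli2 with -3.53 ± 0.54 (log2, SE; limma, adjusted p = 0.000185). In that comparison 9.78% of all genes were higher and 18.4% lower.

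**Figure D5:**
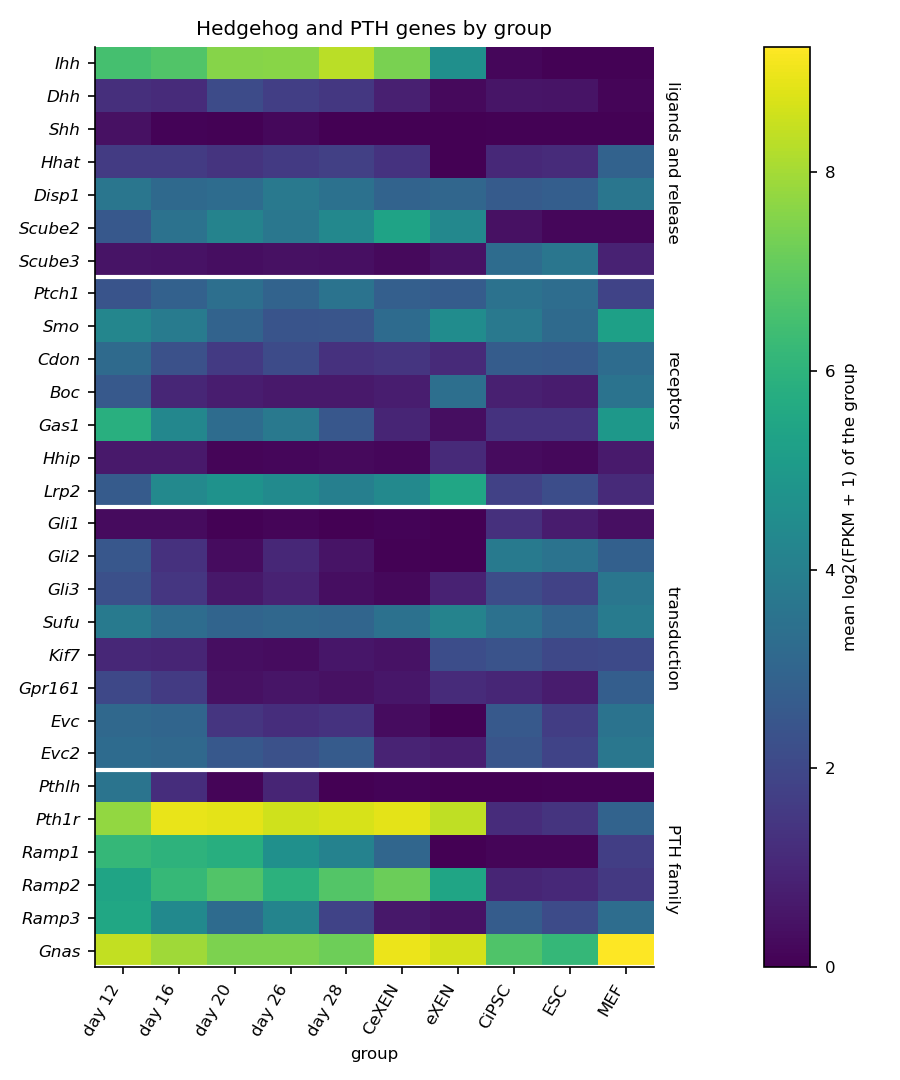
Mean log2(FPKM + 1) of each group (columns, days in order, then XEN, pluripotent and MEF groups) for hedgehog and PTH genes (rows, by role); brighter is higher, with the scale in the bar. Ihh, Scube2, Pth1r and Ramp2 are bright in the cells on the way and XEN cells, where Gli1 and, in XEN cells, Gli2 and Gas1 are dark.

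A further list of 18 genes known as hedgehog targets in some tissue, 16 of them tested, was called in both directions. At day 16 against MEF 1 was higher and 4 lower (median change -0.11, against 0.22 over all genes). In XEN cells against MEF 2 were higher and 9 lower (-1.27, against 0.06), and in CiPSC against MEF 2 and 9 (-1.62, against 0.25). Calls among the 16650 tested genes made up 13.3% (higher) and 7.41% (lower) for day 16 against MEF, with 10.3% and 13.8% for XEN cells. For CiPSC against MEF these shares were 21.7% and 15.3%, so the list's 2 of 16 higher lay below the share of higher calls. Day 16 against eXEN gave 9 higher and 1 lower (1.57, against 0.23), where 14% of all genes were higher and 3.17% lower, and CeXEN against eXEN 3 higher and 0 lower (0.14, against 0.06), where 4.01% were higher. In day 16 against eXEN, markers of fibroblasts (7 of 10 higher, median 4.66), smooth muscle (4 of 4, 4.36) and trophoblast (3 of 4 tested, 2.07) were higher as well, and their part in the response genes was not tested. Most of these genes answer to other pathways as well. Mycn, a growth-promoting transcription factor, was higher in XEN cells by 4.72 ± 0.39 (log2, SE; limma, adjusted p = 3.07e-07), with 47.2 and 31.2 FPKM in CeXEN and 45.1 and 40.1 FPKM in eXEN against 1.06 and 0.204 FPKM in MEF. Osr1, a transcription factor of mesoderm, was lower at day 16, with -3.06 ± 0.22 (log2, SE; limma, adjusted p = 2.95e-07), with 2.09 and 0.960 FPKM against 16.7 and 22.9 FPKM in MEF. Ccnd1, cyclin D1, was higher at day 16 than in eXEN by 5.59 ± 0.66 (log2, SE; limma, adjusted p = 3.95e-05) and higher in CeXEN than in eXEN by 3.33 ± 0.66, at 45.1 and 102 FPKM at day 16 and 5.75 and 29.5 FPKM in CeXEN against 0.623 and 0.261 FPKM in eXEN. Ccnd1 also had 69.1 and 39.6 FPKM in MEF. Spp1 (osteopontin), Wnt5a and Igfbp6 were each lower in XEN cells than in MEF, with log2 changes of -5.32, -4.45 and -5.13.

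Genes of the primary cilium, in which Smo acts, were all tested, 31 in number; 2 were higher and 0 lower at day 16 against MEF, 1 higher and 1 lower in XEN cells against MEF (Ift88, 1.23 ± 0.30, and Ift172, -1.01 ± 0.27, both of the transport machinery), and 0 were called in CeXEN against eXEN, in CiPSC against ESC and in the trend (limma). Over all genes 20.7% were called at day 16 and 24% in XEN cells. The list's median changes were 0.31, against 0.22 over all genes, at day 16 and 0.04, against 0.06, in XEN cells. The direction at day 16 turned with the scaling, with 0 higher and 2 lower after median-of-ratios scaling and 1 higher and 2 lower after quantile normalization. In CiPSC against day 16 1 was higher and 2 were lower, in CiPSC against MEF 2 and 2, in day 16 against eXEN 2 and 1, and in eXEN against ESC 1 and 2. Over all genes 13% were higher and 17% lower in CiPSC against day 16, and 21.7% and 15.3% in CiPSC against MEF. The shares were 14% and 3.17% in day 16 against eXEN, and 9.78% and 18.4% in eXEN against ESC.

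Around Pth1r, a list of 24 genes for the PTH family and its G protein coupling had 18 tested, Pth1r and Pthlh among them. At day 16 against MEF 5 were higher and 3 lower (median change 0.33, against 0.22 over all genes), where 13.3% of all genes were higher and 7.41% lower, and after quantile normalization 3 were higher and 3 lower (-0.04, against -0.02). In XEN cells against MEF 2 were higher and 5 lower (-0.49, against 0.06), where 10.3% of all genes were higher and 13.8% lower. In CiPSC against day 16, 2 were higher and 9 lower (-1.03, against -0.02), where 13% of all genes were higher and 17% lower. Among the other ligands, Pth and its relative Pth2 were listed at 0 in all 21 libraries, and the second receptor Pth2r did not exceed 0.0324 FPKM. These 3 are named after their values were seen. Ramp2, an accessory protein of this receptor class, was also high in the cells on the way and in XEN cells and low elsewhere, with 41.2 to 108 FPKM in the cells on the way, 126 and 163 FPKM in CeXEN and 35.1 and 51.4 FPKM in eXEN, against at most 2.24 FPKM elsewhere. It was higher at day 16 than in MEF by 4.66 ± 0.35 (log2, SE; limma, adjusted p = 4.25e-07), higher in XEN cells by 4.77 ± 0.30 and higher in CeXEN than in eXEN by 1.74 ± 0.35 (log2, SE; limma, adjusted p = 0.00726), a comparison in which Pth1r was not called. Ramp1 differed from it: it had 70.5 FPKM at day 12, 95.7 and 40.5 FPKM at day 16 and 16.3 FPKM at day 28, 4.45 and 11.6 FPKM in CeXEN, and 0 in both eXEN libraries. Gnas, which encodes the stimulatory G protein subunit that couples Pth1r to cyclic AMP, was lower at day 16 than in MEF, with -1.33 ± 0.35 (log2, SE; limma, adjusted p = 0.0113), and higher in eXEN than in ESC by 2.50 ± 0.35 (log2, SE; limma, adjusted p = 8.61e-05). Adcy6, an adenylate cyclase, was lower in CiPSC than at day 16, with -3.25 ± 0.27 (log2, SE; limma, adjusted p = 3.69e-07), at 0.572 to 2.29 FPKM in CiPSC against 21.8 and 19.2 FPKM at day 16.

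Ihh, Pthlh and Pth1r are best known together from cartilage. Chondrocyte and osteoblast markers were low in XEN and pluripotent cells, while on the way their sums overlapped those of MEF. The summed FPKM of 10 such genes was 8.39 to 36.8 in the cells on the way, 1.21 to 4.57 in CeXEN and 0.899 to 1.28 in eXEN, against 4.02 to 6.34 in CiPSC, 4.91 to 5.28 in ESC and 29.9 to 46.9 in MEF. In eXEN all 10 markers were under 1 FPKM in both libraries and 3 were at 0. At day 16 against MEF, 0 of the 4 tested were higher and 3 lower, where 13.3% and 7.41% of all genes were. Sox9 was not called there, with 0.77 ± 0.93 (log2, SE). Markers of visceral endoderm (8 genes), the yolk sac layer in which Ihh is best known, summed to 28.4 to 59.8 FPKM in the cells on the way. They summed to 16.5 to 47.1 FPKM in XEN cells and to 0.770 and 2.24 FPKM in MEF. Those of parietal endoderm (8 genes) summed to 2960 to 3894 FPKM on the way, 2336 to 7666 FPKM in XEN cells and 4850 and 4936 FPKM in MEF. The sums are of different genes and do not rank the 2 layers. In XEN cells against MEF, 5 of 6 tested visceral markers were higher and 0 lower. Of 8 parietal markers 3 were higher and 1 lower. Over all genes 10.3% were higher and 13.8% lower there.

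The genes whose levels were most like each of the 6 were sought among the 16650 tested, by Pearson's r of log2(FPKM + 1) over the 21 libraries. These libraries fall into groups, so a high r mostly reflects the difference between groups. Predicted genes, clone-named genes and small RNAs were left out of the search. Closest to Ihh were Egflam (r = 0.99), Wfdc1 (0.988) and Hopx (0.986), and closest to Pth1r were Chst15 (0.992), Robo2 (0.99) and Gdpd5 (0.986). Wfdc1, a secreted protein, shared the gap between CeXEN and eXEN, with 513 and 529 FPKM in CeXEN and 70.2 and 49.5 FPKM in eXEN. Closest to Ptch1 were Rad1 (0.932), Glo1 (0.897) and Ptcd2 (0.896), and closest to Gli1 were Ccdc151 (0.958), Trim63 (0.942) and Pou2f3 (0.941). Pou2f3, a POU-domain transcription factor, had 1.25 to 11.7 FPKM in CiPSC lines, with N4 and N6 highest as for Gli1. Among the genes searched, Hhip had none above 0.828 (Nrg1, then Mum1l1 at 0.823 and Zhx1 at 0.819). Closest to Pthlh were Sprr2b (0.982), Sptssb (0.982) and Sprr3 (0.979). Sprr2b, which encodes a protein of the cornified envelope of squamous epithelium, had 49.7 FPKM at day 12, 5.23 and 3.83 FPKM at day 16, 0.831 FPKM at day 20, 2.95 FPKM at day 26 and 0.129 FPKM at day 28, and 0 in every XEN and pluripotent library.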

How the data were processed

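Total RNA of 21 mouse libraries was sequenced. The deposited values are FPKM with lower and upper bounds. TopHat, Cufflinks and the build mm10 are named in the submitters' processing notes; versions are not given in the sources used here. Read totals are unknown. The 6 genes were matched by symbol, and groups came from the labels. The 6 genes and the gene lists were chosen with earlier results of these data known. Genes reaching 1 FPKM in 2 libraries or more (16650) entered, as log2(FPKM + 1), a single limma 3.58.1 fit (R 4.3.3, statmod 1.5.0) of all 21 libraries by group, leaving 11 residual degrees of freedom, with an intensity-dependent prior and Benjamini-Hochberg adjustment in each comparison. The trend was fitted on the day to 6 libraries. The fit was tested on simulated data. Genes named beyond the 6 are defining cell markers, up to 4 called genes of largest change per list and comparison (any gene of a list under 12) and the 3 of highest r per gene. Pth, Pth2, Pth2r, Pdgfra and the squamous genes were chosen after their values were seen. Alternatives covered the pseudocount (0.1), filters (none, 5 FPKM), scaling, the prior, the groups fitted, a replicate block and left-out libraries. Other tools were Python 3.11.15, numpy 2.4.6, pandas 2.3.3 and matplotlib 3.10.9. 1 item of the gene lists is not reported here.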

Additional observations from a re-analysis of the deposited data

Results flagged for a closer look

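Pthlh in CiPSC line C3, at 0.134 FPKM, lay far from the other 6 lines, with a gap to the next line of 0.639 of the range of the 7 lines, over the limit of 0.568. The value rests on 1 fragment in the shallowest library, by the quantifier's bounds. The 6 genes were each examined in this way. For normally distributed values the limit marks about 1 in 20 groups by chance. Pthlh was listed at 0 in most of the 7 lines, so that rate does not apply to it.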

How the results depend on the processing

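Of the changes of the tested genes over all alternatives, 610 kept direction and side of the threshold, 22 lost the call, 6 gained it and 24 changed sign. With FPKM of at least 5 required in at least 2 libraries, the genes called fell to 2 in CiPSC against day 16 (4 before) and 1 in day 16 against eXEN (2 before), by fewer genes tested; quantile normalization gave 2 and 1. Fitted on the compared groups alone, with fewer samples, 0 were called in day 16 against MEF (3 before), day 16 against eXEN and CeXEN against eXEN (1 before). With a replicate block CeXEN against eXEN had 0. Replicate numbers did not pair the libraries (r of replicate differences -0.116 to 0.051), and all genes called under the block numbered 1972, 1482 and 200 in day 16 against MEF, day 16 against eXEN and CeXEN against eXEN, against 3452, 2853 and 1077 without it. Compared groups alone gave 0, 533 and 0 there, 2417 in XEN against MEF (3999) and 26 in CiPSC against ESC (10). With 1 library left out, 2 to 4 were called in CiPSC against day 16.

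Sign changed, without a call on either side, under quantile normalization for Ihh in CiPSC against MEF (-0.074), in day 16 against eXEN for Ptch1 (-0.20) and Gli1 (-0.0075), for Ptch1 in CeXEN against eXEN (-0.024) and Pthlh in eXEN against ESC (0.0081), and under median-of-ratios scaling for Ptch1 in day 16 against eXEN (-0.013). C lines alone gave 0.016 for Pthlh in CiPSC against MEF, and -0.34, 0.20 and 0.013 for Ptch1, Pth1r and Pthlh in CiPSC against ESC. G and N lines alone gave Ihh -0.0024 against MEF and -0.030 against ESC. With 1 library left out, Gli1 in day 16 against MEF ran from -0.44 to 0.23, Pthlh from -0.089 to 0.044 in XEN and from -0.097 to 0.036 in CiPSC against MEF, Ptch1 and Gli1 in CeXEN against eXEN from -0.40 to 0.61 and from -0.025 to 0.12, Ptch1 in day 16 against eXEN from -0.29 to 0.71, Ptch1 and Pth1r in CiPSC against ESC from -0.11 to 0.49 and from -0.73 to 0.35, and the Pth1r trend from -0.44 to 0.58. The cause was not tested. The share of higher calls over all genes also moved with the scaling: 64.3% in day 16 against MEF (47% after quantile and 47.2% after median-of-ratios scaling), 81.5% in day 16 against eXEN (53.2% and 69%), 34.7% in eXEN against ESC (52.4% and 45.4%), 58.7% in CiPSC against MEF (49.7% and 46.8%) and 62% in CeXEN against eXEN (49.8% and 57.5%), and median changes of all genes of 0.22, 0.23, -0.26 and 0.25 in the first 4 became -0.02, -0.07, 0.02 and 0.07 after quantile normalization. FPKM files give no read totals, so no counting interval is given, and values under about 0.1 FPKM rest on few fragments.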

Other observations

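A list of 15 squamous epithelium genes was written after Pthlh's nearest genes had been seen and was not tested. Of the 15, 9 had their highest value in the day 12 library and 11 were at 1 FPKM or more there, against 10 and 8 in the day 16 libraries, 6 at day 20, 9 at day 26, 5 at day 28, at most 4 in an XEN library and 0 in either MEF library. Sprr1a stood at 82.2 FPKM, Krt13 at 20.2 FPKM, Krt6a at 7.35 FPKM and Krt14 at 6.28 FPKM at day 12, while Krt5 and Trp63, defining genes of basal squamous cells, stood at 0.425 and 0.299 FPKM. Other genes had their highest value elsewhere: 2 in day 16 replicate 1 (Krt5 and Krt15), 2 at day 20 (Sprr2a3 and Lor) and 2 at day 26 (Krt13 and Ivl). Krt13 had 29.7 FPKM at day 26 and 14.5 and 19.8 FPKM in CeXEN. Day 12 is 1 library, and the part of squamous cells in its Pthlh value was not tested.

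Calca, a gene of the calcitonin family, had 30.6, 36.0 and 40.8 FPKM in the CiPSC lines C3, N4 and N6, 6.25 to 10 FPKM in the other 4 lines and 9.13 and 5.95 FPKM in ESC, against at most 1.43 FPKM in all other libraries.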
